A study of Drosophila melanogaster with 2 samples.

Results

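Sub-threshold peaks in coding sequence are weak ChIP-seq peaks of the transcription factor Spalt major (Salm) whose summits fall inside protein-coding exons. They were chosen from the 30000 peaks that the authors called on both replicates pooled. A peak was sub-threshold if it overlapped none of the 3421 peaks of the authors' thresholded list, which was filtered for consistent ranks between replicates by the irreproducible discovery rate. No sub-threshold peak ranked better than 3422 by signal in the pooled list, and the highest sub-threshold and lowest thresholded signals were both 141. The split thus matched a cut on pooled signal. Being sub-threshold does not by itself mean that a peak differed between replicates. Of 25837 sub-threshold peaks, 610 had a summit in annotated coding sequence, over 500 bp from every transcription start site (TSS) and outside 5′ untranslated regions (UTRs). These 610 peaks are called coding peaks below. Chromatin came from whole Drosophila melanogaster embryos aged 0 to 16 h, of a transgenic line stably expressing salm with GFP fused at the C-terminal end. The tagged protein was precipitated with an antibody against GFP from chromatin sonicated to 200 to 800 bp, and each list was called against a control, per the deposited descriptions. There was 1 group of 2 biological replicates, which the labels give as separate biological samples, and no second condition, so no test between conditions was possible.

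Salm is a zinc-finger protein that regulates transcription in the head and tail regions of the embryo, and later in tracheae, oenocytes and sensory organs. Chromatin immunoprecipitation recovers DNA cross-linked to a protein, and a peak is a place where recovered fragments pile up over the control. In flies, coding sequence is richer in G and C than introns and intergenic DNA, and many of its genes carry repeats of the codon CAG. Whole embryos mix many tissues and stages, so a peak bound in few cells and a peak bound weakly in many cells cannot be told apart.

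The sequences at the summits show the 2 features by which the coding peaks are described below, the nearness of an edge of coding sequence and the word CAGCAG. All are 30 bases from the Release 6 genome (RefSeq), which dm6 names, on the coding strand, centred on the summit. The first 3 come from stronger coding peaks with an edge of coding sequence inside these 30 bases, and capitals mark coding bases. At CG10357 (chr3L:3616520-3616549, plus strand) the coding sequence ends 11 bp from the summit and the stop codon follows in lower case. At CG4230 (chr2L:5097026-5097055, plus strand) and pinta (chr3R:22424064-22424093, minus strand) the lower-case bases are the end of an intron.
CG10357: TACGGCCAGGGCAGGAACTCACATTTCtga
CG4230: cttcaagCAGCTCTTCCGTTTCCGCTTCCA
pinta: tttgtttcccagACCAGCAAAATGATATTG

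The next 4 hold CAGCAG or its complement, CTGCTG, in capitals, and lie in Socs36E (chr2L:18141822-18141851, minus strand), scyl (chr3L:11253844-11253873, plus strand), CG6330 (chr3R:26956554-26956583, minus strand) and Hnf4 (chr2L:8689948-8689977, minus strand). Socs36E carries the word in an unbroken repeat, and Hnf4 carries it in 2 copies.
Socs36E: agCAGCAGCAGCAGcacgaggccgaagtcg
scyl: agcacaagcagccggcgggCAGCAGcaaca
CG6330: accgcaagatgtcgCTGCTGctcaccggaa
Hnf4: agcagtCAGCAGcaattgCAGCAGcaacaa

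The lists give no read totals, and sequencing depth is therefore unknown. The strength of a peak is the authors' own signal value, whose scale differs between lists, so lists are compared only by ranks and by presence. Every interval of a share below is an exact (Clopper-Pearson) 95% binomial interval over peaks or genes and covers counting error only, since peaks are not replicates of the experiment. The pooled list holds the reads of both replicates, so finding a pooled peak in a replicate list is no independent check of it. All 610 coding peaks were 390 bp wide with the summit at the middle of the peak, as were 25196 of the 25227 other sub-threshold peaks, so a summit here is a peak's centre and no sharper than that.

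Coding peaks were scarce among strong peaks and less scarce among weak ones. They made up 2.36% of sub-threshold peaks (interval 2.18 to 2.55), against 4 of 3421 thresholded peaks (0.117%, interval 0.0319 to 0.299). The coding sequence in which a coding peak could lie, over 500 bp from any TSS and outside 5′ UTRs, spans 18373092 bp or 13.7% of the 6 chromosome arms analysed. A further 375 sub-threshold peaks with coding summits lay within 500 bp of a TSS and were not counted. The share of each strength bin is a description, since signal chose the members.

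With the sub-threshold list cut into 10 bins of equal size from strongest to weakest, coding summits made up 0.31% of bin 1 (8 peaks of 2584), 0.348% of bin 2 and 0.658% of both bins 3 and 4. The share was 1.63% in bin 5, 2.32% in bin 6, 3.41% in bin 7 and 3.99% in bin 8. It reached 5.34% in bin 9 (138 peaks of 2584) and was 4.96% in bin 10, whose intervals overlap. The first 4 bins held 51 of the coding peaks in all and the last 3 held 369. Summits in 3′ UTRs, another exonic class, made up 0.89% of bin 1 and 3.41% of bin 10, a shallower climb, while summits within 500 bp of a TSS made up 46.1% of bin 1 and 20.2% of bin 10. Intron summits made up 37.1% of bin 1 and 48.5% of bin 10.

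The same order held when each replicate's own list was binned. In the replicate 1 list, coding summits made up 0.347% of the sub-threshold bin 1 (9 peaks of 2595) and 5.13% of bin 10 (133 of 2594). In the replicate 2 list they made up 0.232% of bin 1 (6 peaks of 2588) and 8.08% of bin 10 (209 of 2588). Over all its sub-threshold peaks, replicate 2 had 1048 coding summits of 25880 (4.05%, interval 3.81 to 4.3), against 600 of 25942 (2.31%, interval 2.13 to 2.5) in replicate 1. The replicates thus differed beyond counting error, with coding summits more frequent in replicate 2, and 1 list each gives no spread for that difference. Both lists hold 30000 rows, and how deep each library was sequenced is unknown, so the part of depth in this difference was not tested.

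**Figure D1:**
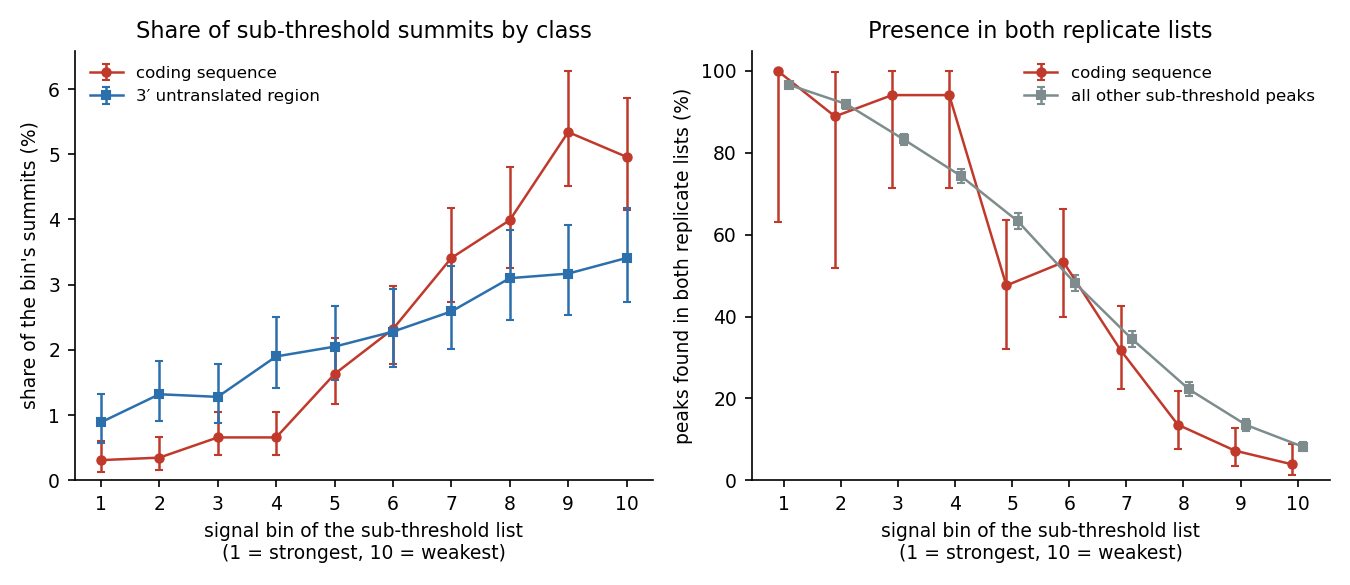
Left, the share (%) of sub-threshold summits in coding sequence (red circles) and in 3′ UTRs (blue squares) in each of 10 signal bins of the pooled list, strongest to weakest. Right, the share (%) of coding peaks (red circles) and of all other sub-threshold peaks (grey squares) whose summit lay in a peak of both replicate lists. Bars are exact 95% binomial intervals over peaks. The coding share is 0.31% in bin 1 and 4.96% in bin 10, and the presence in both lists of coding peaks is 8 of 8 in bin 1 and 3.91% in bin 10.

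The coding peaks had a median signal of 38.7 (quartiles 34.6 and 45.4, range 31.4 to 138), against a median of 51.3 (quartiles 39.3 and 74) for the other sub-threshold peaks. The median was 43.3 for 3′ UTR peaks, 49.5 for intron peaks and 59.8 for peaks at a TSS. Coding peaks thus sat near the floor of the pooled list, 31.3, with a median rank of 23745 against 16596 for the other sub-threshold peaks. The q-value deposited with each peak was under 0.05 for 50 coding peaks (8.2%) and for 10032 other sub-threshold peaks (39.8%). The strongest coding peak had a signal of 138 and the weakest thresholded peak a signal of 141. At the other limit of the rule, the nearest TSS lay 501 bp from the coding peak of Scgalpha (signal 34.3), 502 bp from that of mus312 (36) and 508 bp from that of geko (65.6). Coding summits in Ote (499 bp, signal 39.1), CG11562 (499 bp, 34.1) and GstE13 (497 bp, 32.4) fell just inside 500 bp and were not counted.

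Few coding peaks were found in both replicate lists. A summit was counted as found where it lay inside a peak of that list. Of the 610 coding peaks, 157 (25.7%, interval 22.3 to 29.4) lay in a peak of both lists, where 53.5% of all sub-threshold peaks and 54.2% of the non-coding ones did. The replicate 1 list alone held 207 (33.9%), the replicate 2 list alone held 188 (30.8%) and neither held 58 (9.51%), against 26.9%, 14.3% and 4.59% of the other sub-threshold peaks. The share in both lists was 41.7% for 3′ UTR peaks and 53% for intron peaks.

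Most of that gap went with strength. When the other sub-threshold peaks were weighted to the strength bins of the coding peaks, 29.6% of them lay in both lists, just above the coding peaks' interval of 22.3 to 29.4. In bins 1 to 4 together, 48 of 51 coding peaks (94.1%, interval 83.8 to 98.8) lay in both lists. The share was 42.1% of 190 in bins 5 to 7 and 7.86% of 369 in bins 8 to 10. Set against other peaks of the same bin, the share was 13.6% of coding peaks (interval 7.63 to 21.8) against 22.2% of other peaks in bin 8, and 7.25% (3.53 to 12.9) against 13.5% in bin 9. In each of the other 8 bins the coding peaks' interval held the share of the other peaks.

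In the replicate 1 list, 364 coding peaks were found, at a median signal of 27.8 (range 21 to 109.8) and a median rank of 21809. The replicate 2 list held 345 of them, at a median signal of 19.3 (range 14.3 to 65.9) and a median rank of 20054. The best rank of a coding peak was 2431 in replicate 1 and 2460 in replicate 2. Across the 157 peaks found in both lists, replicate signals had a Spearman correlation of 0.376, against 0.439 across 13668 other sub-threshold peaks. These peaks share the 2 libraries and were picked for appearing in both, so the correlation is a description only. Of the sub-threshold coding summits in each replicate's own list, the other replicate's list held 159 of 600 (26.5%) for replicate 1 and 172 of 1048 (16.4%) for replicate 2, against 54.3% and 54.8% of the other sub-threshold summits of those lists.

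The 20 strongest coding peaks lay in 18 genes, and 19 of them were found in both replicate lists. The strongest was in bifocal (bif, arm X, 11681734 to 11682123 in dm6), which encodes an actin-binding protein of photoreceptors and axons. Its signal was 138 in the pooled list, 78.3 in replicate 1 (rank 4659) and 45.6 in replicate 2 (rank 4824), and the summit lay 2959 bp from the nearest TSS in a coding block of 2537 bp. The same block held 2 further coding peaks, with pooled signals of 95 and 93.1. The peak with 95 overlapped the strongest one and fell in the same replicate 1 peak, so the pair does not show 2 separate sites in that library. No other gene had 3 coding peaks in both lists.

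CG4822 followed with a signal of 132 in the pooled list, 75.9 in replicate 1 and 56 in replicate 2, 122 bp inside a coding block of 257 bp (arm 2L, 117759 to 118148). CG10357 also reached 132, with 69.3 in replicate 1 and 65.9 in replicate 2, the highest replicate 2 signal and rank (2460) of any coding peak. Of its 390 bp 38.7% were coding, in a block of 70 bp that ends at the stop codon shown above and in coding sequence beyond the intron before it. The ranks of these 3 peaks lay between 2460 and 5711 in the replicate lists.

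The replicates matched less well at Socs36E, which encodes an inhibitor of JAK/STAT signalling. Its peak (arm 2L, 18141642 to 18142031) had a signal of 131 in the pooled list and the highest replicate 1 signal of all coding peaks, 109.8 (rank 2431), but 20.7 in replicate 2 (rank 17996). A wider gap occurred at scrib, which encodes a scaffold of apicobasal polarity. Its peak had 95 in the pooled list and 75.3 in replicate 1 (rank 4985) and was absent from the replicate 2 list. Other strong peaks lay in CG34348 (signal 126), jvl (121), which encodes a microtubule-associated protein of bristles, and bun (120.3), which encodes a transcription factor of the TSC22 family. The peak in tai, which encodes a coactivator of the ecdysone receptor, reached 106, and that in hth, a homeodomain partner of Hox proteins, reached 93.5. In tai the replicate 1 signal was 74.2 (rank 5097) and the replicate 2 signal 24.8 (rank 13610), and in hth they were 75.5 (rank 4967) and 25.4 (rank 13105).

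The remaining peaks of the strongest 20 lay in Ubr1 (88.5), a ubiquitin ligase of the N-degron pathway, stac (88.2), Tim17b1 (82.7), a subunit of the mitochondrial inner membrane import machinery, and rt (81.7), a protein O-mannosyltransferase. They also included plh (81.4), CG4230 (80.4), CG31259 (79.1) and CG33229 (76.6). All 20 had a summit sequence of 31 bases that occurs once on the 6 arms analysed. Of the 20, 9 lay within 50 bp of a coding edge and 4 were coding over all of their 390 bp. Their median GC content within 50 bp of the summit was 49.5%.

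**Figure D2:**
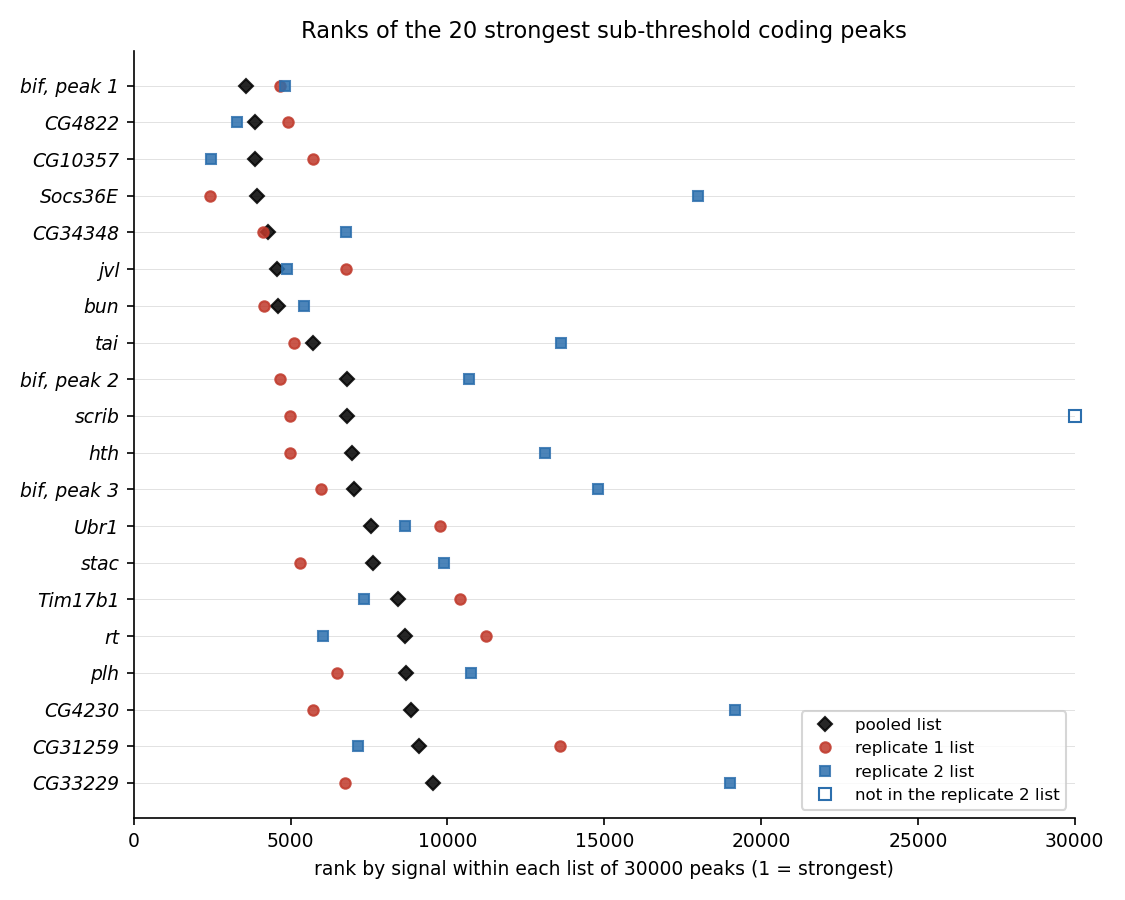
Rank by signal within each list of 30000 peaks (1 is the strongest) of the 20 strongest coding peaks, in the pooled list (black diamonds), the replicate 1 list (red circles) and the replicate 2 list (blue squares), with genes ordered by pooled signal. The open square marks scrib, which is not in the replicate 2 list. Socs36E ranks 2431 in replicate 1 and 17996 in replicate 2, while CG10357 ranks 5711 and 2460.

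Only 4 thresholded peaks had summits in coding sequence by the same rule. They lay in Pde1c, a cyclic nucleotide phosphodiesterase gene (signal 305 in the pooled list, 204 in replicate 1 and 93.8 in replicate 2), and otp, a homeobox gene (296, 196 and 107 in the same order). The others were l(3)mbn (217, 139.9 and 74) and InR, the insulin receptor gene (153, 102 and 47.3). All 4 were found in both replicate lists. So few peaks allow no comparison of position or composition with the coding peaks.

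Coding peaks lay closer to the ends of coding blocks than coding sequence at large. A coding block is a stretch of the genome covered by coding exons without a break, and the comparison was with 183734 positions, every 100th base of the eligible coding sequence. The summit lay a median of 113 bp from the nearest coding edge (quartiles 39 and 278), against 169 bp (62 and 404) for these positions. It lay within 50 bp of an edge in 178 of 610 coding peaks (29.2%, interval 25.6 to 33), against 21% of positions. The blocks were shorter as well, with a median of 596 bp against 824 bp. Peaks coding over all of their 390 bp numbered 211 (34.6%, interval 30.8 to 38.5), against 46.2% of positions, and 75 (12.3%) were less than 50% coding, against 5.16%.

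The stronger coding peaks lay nearest to edges. Within 50 bp of an edge were 45.1% of the 51 coding peaks in bins 1 to 4 (interval 31.1 to 59.7), 32.1% of the 190 in bins 5 to 7 (25.5 to 39.2) and 25.5% of the 369 in bins 8 to 10 (21.1 to 30.2). The share coding over the whole peak was 23.5%, 29.5% and 38.8% in the same order. Peaks less than 50% coding made up 29.4% of bins 1 to 4 (interval 17.5 to 43.8), 10% of bins 5 to 7 and 11.1% of bins 8 to 10. The stronger coding peaks thus more often reached out of coding sequence, as at CG10357.

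The nearest edge faced an intron in 63.3% of coding peaks (interval 59.3 to 67.1), a stop codon in 21.1% (18 to 24.6) and a 5′ UTR in 13.8% (11.1 to 16.8). Of the eligible coding positions (every 10th of the set above, 18374), 73% faced an intron, 19.4% a stop codon and 6.22% a 5′ UTR. The edge was on the 5′ side of the summit in 46.2% of coding peaks and in 46.4% of positions, a difference within counting error. The summit base was coding in every transcript of the gene that spans it in 546 of 610 peaks (89.5%), against 91.2% of positions. The 31 bases at the summit occurred more than once on the 6 arms analysed in 3 coding peaks (0.492%), against 1.98% of positions.

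Coding peaks also lay nearer to gene starts and to strong peaks than coding sequence at large. The nearest TSS was a median of 1254 bp away, against 1891 bp for eligible coding positions, and lay within 1000 bp for 34.9% of coding peaks (interval 31.1 to 38.8), against 23.6% of positions. A thresholded summit lay within 2 kb of 135 coding peaks (22.1%, interval 18.9 to 25.6), against 8.21% of positions. The median distance to the nearest thresholded summit was 5658 bp, against 12536 bp for positions and 7568 bp for the other sub-threshold peaks. Among the latter, peaks in 5′ UTRs lay nearer than coding peaks, at a median of 3999 bp. Among sub-threshold peaks of other classes, the share within 2 kb of a thresholded summit was 12.5% in 3′ UTRs, 19.6% in introns and 18% at TSSs. Nearness to a thresholded summit did not go with signal among coding peaks, at 19.6% in bins 1 to 4, 26.3% in bins 5 to 7 and 20.3% in bins 8 to 10. The peaks also crowded little among themselves, with 16 pairs of neighbouring coding peaks overlapping and 48 coding peaks overlapping another sub-threshold peak outside the set.

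**Figure D3:**
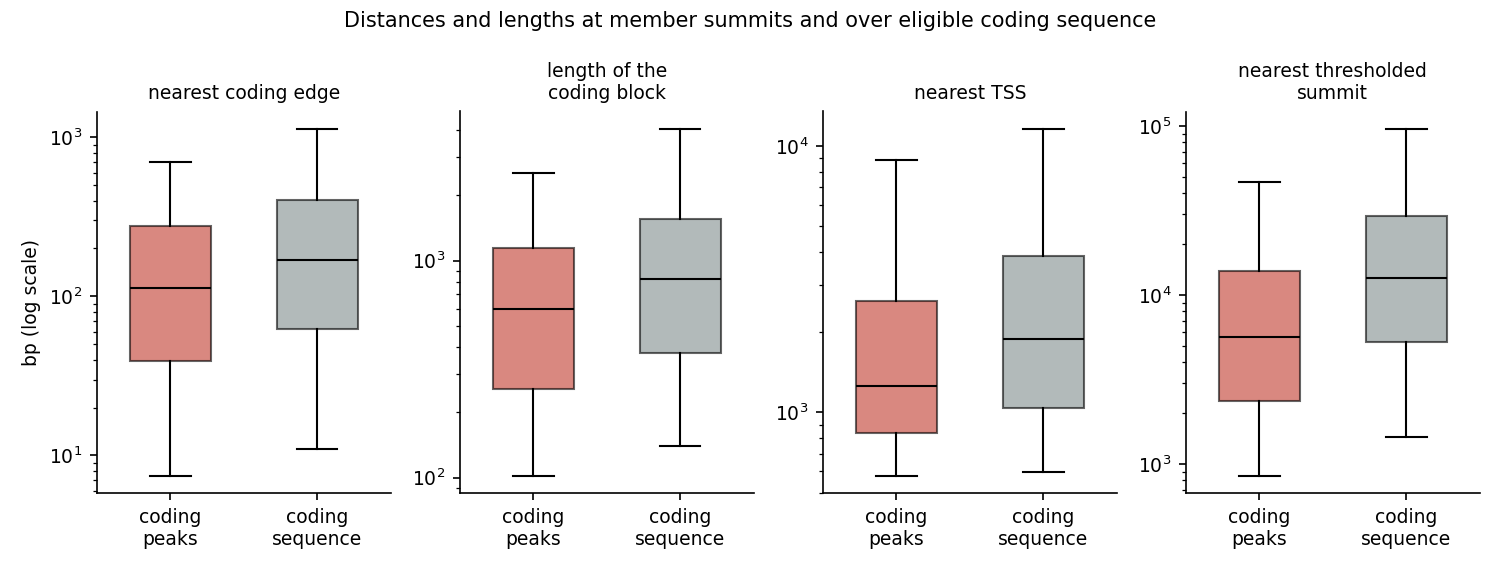
Boxes of the distance from the summit to the nearest coding edge, the length of the coding block, the distance to the nearest TSS and the distance to the nearest thresholded summit (bp, log scale), for the 610 coding peaks (red, left) and 183734 positions of eligible coding sequence (grey, right). Lines mark medians, boxes quartiles and whiskers the 5th and 95th percentiles. The 4 medians are lower for coding peaks, at 113, 596, 1254 and 5658 bp, against 169, 824, 1891 and 12536 bp.

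In base composition, the coding peaks were like coding sequence and unlike other peaks. The median GC content within 50 bp of the summit was 54.5% (quartiles 48.5 and 59.4), against 53.5% for eligible coding positions (47.5 and 58.4). It was 40.6% for the other sub-threshold peaks, 39.6% for those in introns, 36.6% for those in 3′ UTRs and 32.7% for thresholded peaks. The rule put the coding peaks in coding sequence, so their gap to the non-coding classes comes with the choice of members and the values that bear on them are those beside coding positions.

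The summit of a coding peak stood out from its flanks mainly where the flanks left coding sequence. GC content at the summit was a median of 5.94 percentage points above the mean of the flanks centred 300 bp to each side (54.5% against 47.5%), and it was higher in 439 of 610 peaks (72%). At eligible coding positions the median difference was 3.47 points, and the summit was higher in 65.7%. In the 113 coding peaks whose surrounding 701 bases were all coding, the median difference was −1.49 points and the summit was higher in 42.5%, against −0.495 points and 46.2% at positions of that kind. The share of coding bases fell off faster around coding peaks than around coding positions, to 51.3% and 46.7% at 500 bp to the left and right along the arm, against 65.2% and 65.3%.

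**Figure D4:**
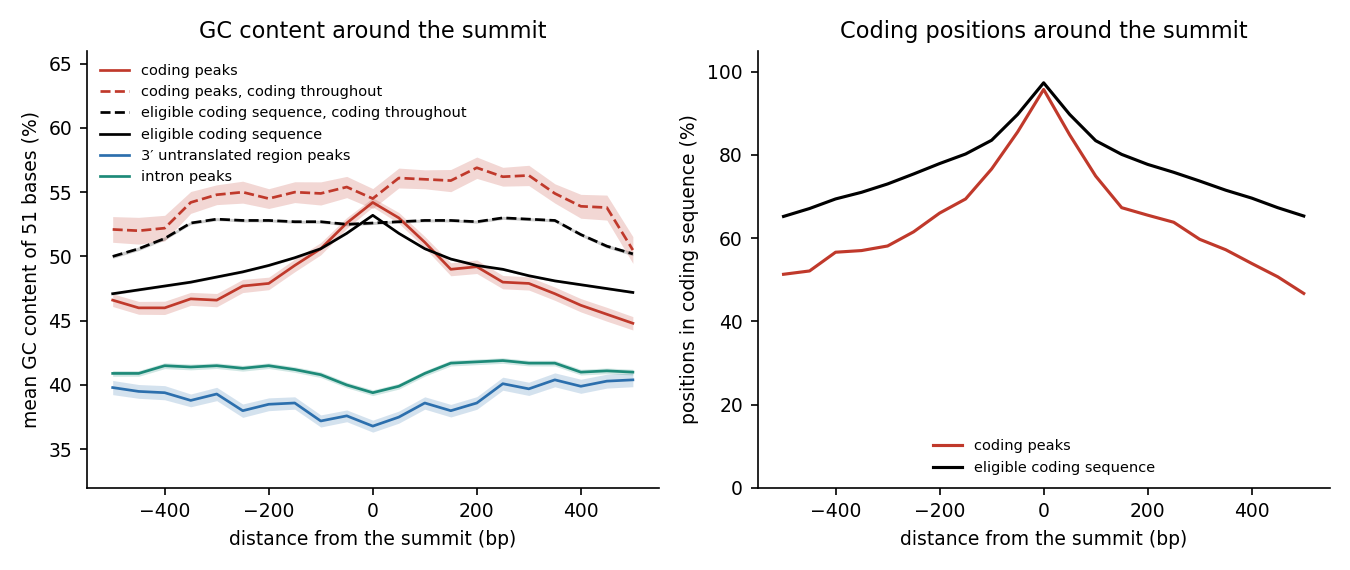
Left, mean GC content (%) of 51-base windows by distance from the summit (bp, left to right along the arm), for coding peaks (red), eligible coding positions (black), 3′ UTR peaks (blue) and intron peaks (green, every 5th); dashed lines are sets coding over 701 bases, and bands are standard errors over peaks or positions. Right, the share (%) of those windows' bases in coding sequence. Coding peaks show 54.2% at the summit and 46.6% at 500 bp to the left, and intron peaks 39.4% at the summit and 40.9% there.

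Of 9 short words searched on both strands within 50 bp of the summit, CAGCAG was the one most above coding sequence. On the coding strand it can encode glutamine repeats, but CTGCTG on that strand was counted as well. At CG6330, which holds CTGCTG, no codon within 50 bp of the summit encoded glutamine. The word, in either form, occurred in 131 of 610 coding peaks (21.5%, interval 18.3 to 25), against 17.4% of eligible coding positions, and in 6.33% of intron peaks and 3.62% of thresholded peaks. In the weaker of the coding peaks, those below their median signal, it occurred in 19.7%, with an interval of 15.4 to 24.6 that holds the share of coding positions. Among the 20 strongest coding peaks 5 held it, as Socs36E does in the sequence printed above. ATATT occurred in 13.6% of coding peaks and 13.2% of coding positions, against 35.3% of intron peaks and 52% of thresholded peaks. GAGAG, a word bound by the GAGA factor, occurred in 11.5% of coding peaks and 12.3% of coding positions, CACACA in 3.61% and 3.69%, and the E-box CANNTG in 40.7% and 43.2%.

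Words known from insect promoters and early embryos were rare or missing. CAGGTAG, the word bound by the early factor Zelda, occurred in 4 coding peaks (0.656%), against 0.938% of coding positions. The DNA replication-related element, TATCGATA, and the promoter word GGTCACACT occurred in 0 of 610 coding peaks each, which allows a share of up to 0.603%, against 0.0822% and 0.0403% of coding positions. In sub-threshold peaks at TSSs they occurred in 2.77% and 1.85%. AAAAAA occurred in 2.62% of coding peaks and 3.61% of coding positions, against 21.6% of intron peaks. Some words can share bases with others, such as CAGCAG with CANNTG and CACACA with GGTCACACT.

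The codons within 50 bp of the summits encoded somewhat more alanine and asparagine than those at coding positions and less glutamate and lysine. Alanine made up 8.34% of 18468 codons, against 7.4% of codons at positions, and asparagine 5.26% against 4.67%. Glutamate made up 5.6% against 6.47% and lysine 4.81% against 5.46%. Glutamine, in spite of the CAGCAG words, was no more frequent over all codons, at 5.26% against 5.36%. Runs of at least 5 glutamines were found in 15 coding peaks (2.46%, interval 1.38 to 4.02), against 1.08% of positions, and runs of at least 5 of any residue in 38 (6.23%, interval 4.45 to 8.45), against 3.36%.

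The 610 coding peaks fell in 543 of the 12260 protein-coding genes with eligible coding sequence (4.43%). Of these genes, 488 held 1 coding peak, 46 held 2, 6 held 3 and 3 held 4. These counts are of peaks and not of separate sites, since 16 pairs of neighbouring coding peaks overlapped. In tara, for example, the peaks of 54.5 and 44.6 overlapped and fell in the same replicate 1 peak (rank 23496). The 3 with 4 were gukh, whose product binds the synaptic scaffold Dlg, bun, and raskol, which encodes a Ras GTPase-activating protein. The strongest coding peak of gukh had a signal of 45 and that of raskol 57. None of the 4 coding peaks of gukh was in both lists, against 1 of 4 for bun and 1 of 4 for raskol. The genes with 3 were bif, hth, Exn (strongest signal 74.4), CG42748 (55.5), tara (54.5) and Zasp52 (36.7), which encodes a Z-disc protein of muscle.

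A longer coding sequence gave a gene more room, and the share of genes with a coding peak followed it, but less than in proportion. With genes split by eligible length into 5 equal groups from short to long, 1.18%, 3.18%, 4.45%, 5.71% and 7.63% held a coding peak. Per Mb of eligible sequence the same groups had 61.7, 57.3, 46.6, 38.6 and 23 coding peaks, against 33.2 over all genes. By arm the density was 28.7 per Mb on X, between 33.2 and 36.2 on the 2L, 2R, 3L and 3R arms, and 3.95 on chromosome 4, which held 1 coding peak.

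Genes with a coding peak more often had a thresholded summit as well. A thresholded summit lay in the gene or up to 2 kb before its start in 251 of 543 genes with a coding peak (46.2%, interval 42 to 50.5), against 2529 of 11717 genes without one (21.6%, 20.8 to 22.3). Genes with a coding peak were longer, with a median of 4793 bp against 2377 bp. Within 5 groups of equal size by gene length, from short to long, the shares were 25.8%, 19.4%, 30.3%, 39.7% and 68.6% for genes with a coding peak, against 10.6%, 15.3%, 18.4%, 24.4% and 40.6% for genes without one. In the second group the interval of genes with a coding peak, 10.8 to 30.9, holds the share of genes without one.

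Among the gene lists examined, the ecdysone cascade and nuclear receptor genes held the most members. Of 24 such genes, 7 (29.2%) had a coding peak, against 4.43% of all genes, and their density was 112 per Mb, against 33.2. In the longest of the 5 groups by eligible length, 7.63% of genes had a coding peak, at 23 per Mb. The lists were chosen with earlier results of these data known, and the difference was not tested. The strongest of the 7 were in Hnf4, a receptor that controls lipid metabolism (signal 62.4 in the pooled list, 43.8 in replicate 1 and 14.3 in replicate 2), EcR, the ecdysone receptor (50.1, 27.9 and 19.3), Hr4 (47.4, 34 and 15.2) and the ETS-family gene Eip74EF (45, 35.4 and 18.3). Those 4 were in both replicate lists, with replicate 1 ranks between 11886 and 21744 and replicate 2 ranks between 19920 and 29984. Eip75B (37.3) was found in the replicate 2 list only, ftz-f1 (34.5) in the replicate 1 list only and Hr51 (31.6) in neither. Their summits lay 1446 to 2807 bp from the nearest thresholded summit, and br and Eip93F, the genes of the list with the longest eligible coding sequence and no coding peak, had none. The coding peak of Hnf4 held CAGCAG.

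Of 34 EGFR, Notch and Dpp pathway genes, 5 had a coding peak (14.7%, against 4.43% of all genes), at 79.8 per Mb, against 33.2. They were numb, an inhibitor of Notch in asymmetric divisions (signal 55.1 in the pooled list, 41 in replicate 1 and 14.4 in replicate 2), Dad, an inhibitory Smad with 2 coding peaks (53.8 and 31.8), and E(spl)m8-HLH, a Notch target (50.7). The stronger Dad peak was in both replicate lists and the weaker in the replicate 2 list only. That of E(spl)m8-HLH was in the replicate 1 list only. Med, the co-Smad, and brk, a repressor of Dpp targets, each had a coding peak of 32.3 found in the replicate 2 list only. N and shn had none. Of 36 gap, pair-rule and segment polarity genes, 3 had a coding peak (8.33%, 43.7 per Mb), namely fz, a Wnt receptor (40.6), ems, a head gap gene (40.2), and Ten-m, a teneurin (34.8), and ptc and ci had none. The fz peak was in both replicate lists and those of ems and Ten-m were in the replicate 2 list only. Of 12 homeotic genes and cofactors 1 did (8.33%, 158 per Mb), hth, with 3 peaks of 93.5, 40.2 and 33.9, while tsh and pb, the longest of the list, had none. Only the strongest hth peak was in both replicate lists.

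In tracheal, neural and muscle genes the coding peaks had signals between 31.8 and 53.2. Of 15 tracheal genes (6.67%, against 4.43% of all genes) vvl, a POU-domain factor, had a coding peak of 37.6, found in the replicate 1 list only, and uif and stumps had none. Of 30 neural fate and glial genes 3 did (10%, 51.5 per Mb), namely moody, a receptor of the glial blood-brain barrier (46.3), sim, the midline regulator (40), and ct, a homeodomain factor (33.3), while loco and pros had none. The moody peak was in the replicate 1 list only, the sim peak in the replicate 2 list only and the ct peak in neither. Of 28 muscle genes 3 did (10.7%, 20.6 per Mb), namely bin, a visceral mesoderm regulator (53.2), Zasp52, with 3 peaks, and Tm1, a tropomyosin gene (32.2). The bin and Zasp52 peaks were in the replicate 1 list only and the Tm1 peak in the replicate 2 list only. The coding peak in salm itself was weak (signal 34.9 in the pooled list, 29.2 in replicate 1 at rank 20600, and not in the replicate 2 list), and lay 7901 bp from the nearest TSS. The line carries tagged salm, and the labels used here do not give the extent of the tagged copy. The paralogue salr had none.

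Large cytoskeletal and adhesion genes held few coding peaks per Mb. Density fell with length over all genes, to 23 per Mb in the longest of the 5 groups by eligible length. The muscle list, at 20.6 per Mb, was near that value, and the cytoskeletal and adhesion lists were below it, on 2 coding peaks each. That group spans genes of 2148 to 68847 bp, so the lists were not matched to it for length and the difference was not tested. Msp300 with 63016 bp of eligible coding sequence and sls with 55457 bp, which encode giant muscle proteins, had no coding peak. Of 20 genes listed as large cytoskeletal, btsz, a synaptotagmin-like gene (74.6), and zip, the myosin II heavy chain gene (59.4), had 1 each (10% of the list), both in both replicate lists. The density was 6.94 per Mb over the list, against 33.2 over all genes. The length of the list includes Msp300, also counted in the muscle list, and Muc14A (48255 bp), neither with a coding peak. Of 30 adhesion genes Nrg, an L1-type adhesion gene (35.4), and Ten-m did (6.67%), at 8.7 per Mb, while Dscam1 and ft had none. Neither of these peaks was in both replicate lists. Of 29 Polycomb and trithorax group genes 1 had a coding peak (3.45%, near the 4.43% of all genes), osa, a subunit of the Brahma complex (signal 41.9, in the replicate 2 list only), and kis and trx had none. Of 15 vesicle and yolk genes 1 did (6.67%), Sec31 of the COPII coat (37, in the replicate 2 list only), with lva and Sec16 among those without.

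No coding peak lay in any of 17 insulator and chromosome organising genes (among them Nipped-B and mod(mdg4)), 21 genes of chromosomes and the RNA polymerase II machinery (nej and skd), 19 heat shock genes (Hsf and Hsp83) or 22 translation factor genes (eIF4G1 and eIF4G2). At 33.2 per Mb over all genes, these lists of 24027 to 92763 bp leave room for few coding peaks, and the lists were not tested against each other or against all genes.

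**Figure D5:**
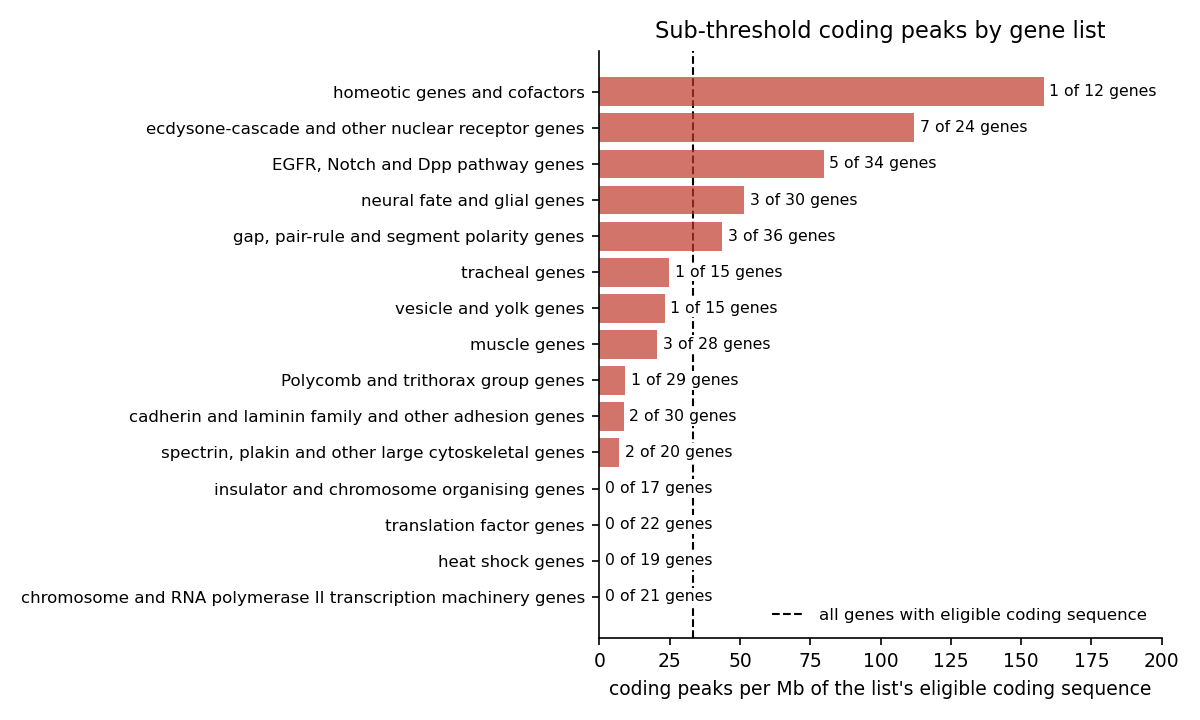
Coding peaks per Mb of eligible coding sequence for 15 gene lists, with the number of genes that hold at least 1 coding peak beside each bar; the dashed line marks 33.2 per Mb over all genes with eligible coding sequence. The pair of spalt genes is not drawn. The homeotic bar rests on the 3 coding peaks of hth, and the nuclear receptor bar, at 112 per Mb, on 7 genes.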

How the data were processed

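The authors called peaks on each replicate and on both pooled, per the file descriptions, and deposited lists of 30000 rows with a signal and a −log10 q-value per peak (ceiling 4.08 in the pooled list). Which aligner and peak caller were run, and at which rank-consistency threshold, is not given in the sources used here. Signal was used to rank peaks within a list. Overlap with a thresholded peak by 1 bp removed a pooled peak; 742 pooled peaks outside the thresholded list went that way. Summits were classed in the order TSS within 500 bp, 5′ UTR, coding, 3′ UTR, other exon, intron and intergenic, from Ensembl release 115 (FlyBase 6.54). Transposable element starts were not counted as TSSs. Stop codons were not counted as coding. Positions were every 100th eligible coding base, and sequence windows had 101 bases.

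The members, gene lists and words were chosen with earlier results of these data known. Of the listed symbols, 348 matched by symbol, 15 by synonym, 7 were ambiguous and 3 had no match. Named genes are those of the 20 strongest coding peaks, the 8 genes with most coding peaks, up to 4 genes with and 2 without a coding peak per list, salm and salr, and the 3 members nearest each limit of the rule. Other genes (l(3)mbn, InR, Pde1c and otp, pinta, scyl, CG6330, Zasp52 in the count of genes with 3 peaks, brk, Eip75B, ftz-f1 and Hr51) were named after their values were seen. No p-value was computed. Alternatives changed 1 choice at a time. The scripts were tested on simulated data and run in Python 3.11.15 with scipy 1.17.1, pandas 2.3.3, numpy 2.4.6 and matplotlib 3.10.9.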

Additional observations from a re-analysis of the deposited data

How the results depend on the processing

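No paired analysis was possible because there was 1 group. Over 82 recomputed values, 55 stayed within 1.5 times the reported count or within the reported interval and 27 moved outside. With a TSS distance of 250 bp the coding share was 2.96%, and with 1000 bp it was 1.54% (397 peaks). In the stronger part of the sub-threshold list (above its median signal) it was 0.72% (93 peaks, 73.1% in both lists, median GC 52.5%), and at the highest q-value 0.325% (8 peaks, 100% in both lists, GC 47%). These 2 GC values lie below the 53.5% of coding positions and the reported 54.5% lies above, but the intervals do not separate them from it. Taken from the order of the values, these were 49.5 to 54.5 and 38.6 to 68.3, and 53.5 to 55.4 for the reported median. The coding share was 2.11% where every spanning transcript had to be coding and 2.58% with the strongest of overlapping peaks. From 1 replicate's list alone the share ranged from 2.31 to 4.05%, the count from 600 to 1048 and the share found in the other list from 16.4 to 26.5%. The share in both lists was 33.6% with 1 bp of overlap, 19.5% with summits within 100 bp and 3.61% with the strongest 15000 rows of each list. In a wider window median GC was 53.2%. Counting transposable element starts as TSSs, an alternative chosen after seeing the data, kept all of them within these limits (605 peaks). The number of genes ranged from 8 to 943 and the CAGCAG share from 19 to 37.5%. Its interval held the 17.4% of coding positions in the replicate 1 list alone (19%, 15.9 to 22.4) and with a TSS distance of 250 bp (19.8%, 17.1 to 22.8). Read depth is unknown, the 30000-row limit sets the weakest peak, and summits are peak centres, so distances to a coding edge are coarse.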
